A study of Mus musculus with 48 samples.

Results

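The genes described here are 9 ubiquitin ligases, or substrate-binding subunits of ubiquitin ligases, that are linked to skeletal-muscle atrophy: *Fbxo32*, *Trim63*, *Trim54*, *Trim55*, *Fbxo30*, *Fbxo21*, *Nedd4*, *Traf6*, and *Stub1*. They were chosen by name, with earlier results of these data known, and they are 9 of the 56748 genes in the expression table. All 9 passed the filter on low counts and were among the 15637 genes tested. Messenger RNA was measured by sequencing in tibialis anterior (TA) muscle, a fast-fiber muscle of the lower leg, in 48 libraries from 24 groups with 2 mice in each. The groups combine genotype (WT or FoxP1SkmKO), condition (control or KPC), and circadian time (CT18, CT22, CT26, CT30, CT34, or CT38). The design asks whether a pancreatic tumor alters muscle transcripts, whether this depends on the time of day, and whether it depends on FoxP1 in muscle fibers.

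KPC mice had received murine KPC pancreatic cancer cells into the pancreas, and control mice the same surgery with saline. In FoxP1SkmKO mice a floxed *Foxp1* gene is deleted by an ACTA1-Cre transgene, which drives Cre in muscle fibers, so *Foxp1* in other cells of the muscle is left in place. WT mice are C57BL/6J by the sample labels and FoxP1fl/fl without Cre by the description of the series, and this was not resolved. All mice were males, aged 39 to 55 weeks by the methods of the study. Its stated limitations give a younger age for the mice used for RNA sequencing, and this conflict was not resolved. The mice were kept on a light cycle with lights on at 6 a.m. and then moved to constant darkness before collection. CT18 was thus sampled at 00:00 by the clock and CT38 at 20:00. Mice are active at night, and CT26, CT30, and CT34 fall in the part of the day in which the lights would have been on.

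Ubiquitin ligases give the ubiquitin system its choice of substrate. An activating enzyme and a conjugating enzyme (E2) load ubiquitin, and the ligase (E3) brings the loaded E2 to a protein, which, once it carries a ubiquitin chain, can be degraded by the proteasome. *Fbxo32* (atrogin-1) and *Trim63* (MuRF1) are widely used as transcript markers of muscle wasting, and both are known to be induced by FoxO factors and by glucocorticoids. *Trim54* (MuRF3) and *Trim55* (MuRF2) are the sarcomere-associated relatives of *Trim63*. *Fbxo30* (MUSA1) and *Fbxo21* (SMART) encode F-box proteins, which, like atrogin-1, bind the substrates of SCF-type ligases. *Nedd4* encodes a HECT ligase, which carries the ubiquitin itself before passing it on. *Traf6* encodes a RING ligase of inflammatory signaling that builds chains used for signaling as well as for degradation, and *Stub1* (CHIP) encodes a U-box ligase that acts on clients of the heat shock chaperones.

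In the mm39 genome, *Fbxo32* lies at chr15:58039275-58078328 on the minus strand and *Trim63* at chr4:134042431-134056940 on the plus strand. *Trim54* lies at chr5:31274056-31294974 and *Fbxo21* at chr5:118114795-118148266, *Trim55* at chr3:19698638-19746585, *Fbxo30* at chr10:11157074-11173796, *Nedd4* at chr9:72569628-72657134, *Traf6* at chr2:101508774-101532014, and *Stub1* at chr17:26049479-26052378 on the minus strand. All are annotated as protein coding. The promoter table from RefSeq (GRCm38.p6) held a window for 7 of the 9 genes, reaching from 250 bases before to 50 bases after the start of transcription. It held none for *Fbxo32* and *Trim55*, so these genes were not searched for motifs. Each window was found once in GRCm39, which is the mm39 build. These windows were searched on both strands for 4 motifs that bear on wasting and on the clock. The forkhead motif was spelled GTAAACA, the core hexamer of the glucocorticoid response element AGAACA, the E-box, which reads the same on both strands, CACGTG, and the D-box TTATGTAA. The upstream part is shown for *Trim63*, as the member with a forkhead motif, and for *Stub1*, as the member with an E-box. The region of *Trim63* is chr4:134042181-134042430 and that of *Stub1* is chr17:26051894-26052143, printed on the minus strand. Capitals mark the motifs.
Trim63: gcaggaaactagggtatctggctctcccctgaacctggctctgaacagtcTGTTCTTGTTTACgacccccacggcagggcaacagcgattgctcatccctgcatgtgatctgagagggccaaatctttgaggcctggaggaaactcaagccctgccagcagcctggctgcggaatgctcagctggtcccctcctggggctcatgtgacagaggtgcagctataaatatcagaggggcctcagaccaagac
Stub1: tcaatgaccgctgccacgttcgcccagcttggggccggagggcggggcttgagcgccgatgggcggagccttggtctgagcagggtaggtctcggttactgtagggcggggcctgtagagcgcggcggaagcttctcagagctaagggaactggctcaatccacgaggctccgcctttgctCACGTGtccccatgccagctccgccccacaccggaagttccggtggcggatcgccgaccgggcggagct
In *Trim63*, the capitals hold the hexamer on the other strand from position −200, counted from the start of transcription, followed without a gap by the forkhead motif on the other strand from position −194. In *Stub1*, the E-box began at position −69 from the RefSeq start. The printed *Stub1* region lies inside the gene as located above, whose upstream end is at 26052378. The 2 annotations thus place the start of *Stub1* differently. The forkhead letters were present in 3.65% of all 32851 promoter windows, the E-box in 7.15%, the hexamer in 18.97%, and the D-box in 0.938%. Among the other windows, the hexamer was found in *Trim54* and in 1 of 2 windows of *Nedd4*, and no window of a member held the D-box. A match is a stretch of letters and was not examined for binding.

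The 9 transcripts spanned a wide range of abundance, given here as FPKM (fragments corrected for gene length and sequencing depth), which allows genes to be compared. In WT control mice, *Trim54* was the highest at 183 ± 10.5 FPKM (SD, n = 12 mice over the 6 times), 3.61 times the level of *Trim63* at 50.8 ± 6.56. *Nedd4* followed at 32.8 ± 3.56, *Fbxo32* at 28.7 ± 8.36, *Trim55* at 25.3 ± 1.32, and *Stub1* at 18.0 ± 2.41. The remaining genes were 6.01-fold or more below *Stub1*: *Fbxo21* at 2.99 ± 0.316, *Traf6* at 2.87 ± 0.236, and *Fbxo30* at 2.32 ± 0.498. The ranges of *Trim54*, *Trim63*, and *Nedd4* did not overlap with each other, nor did those of *Stub1* and *Fbxo21*. The neighbors *Nedd4* and *Fbxo32*, *Fbxo32* and *Trim55*, *Trim55* and *Stub1*, *Fbxo21* and *Traf6*, and *Traf6* and *Fbxo30* overlapped in range. The lowest raw counts were 136 for *Fbxo30*, 208 for *Fbxo21*, and 314 for *Traf6*, and *Nedd4* had between 5933 and 8803 counts per library. Whether the counting used strand is not stated, and 53% of the exon bases of *Stub1* overlap *Jmjd8*, a gene on the opposite strand with a mean of 1.42 FPKM. *Gm56915*, also on the opposite strand, overlaps 40.6% and had a mean of 7.66 FPKM, so reads of *Stub1* and of these genes may not be told apart.

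**Figure D1:**
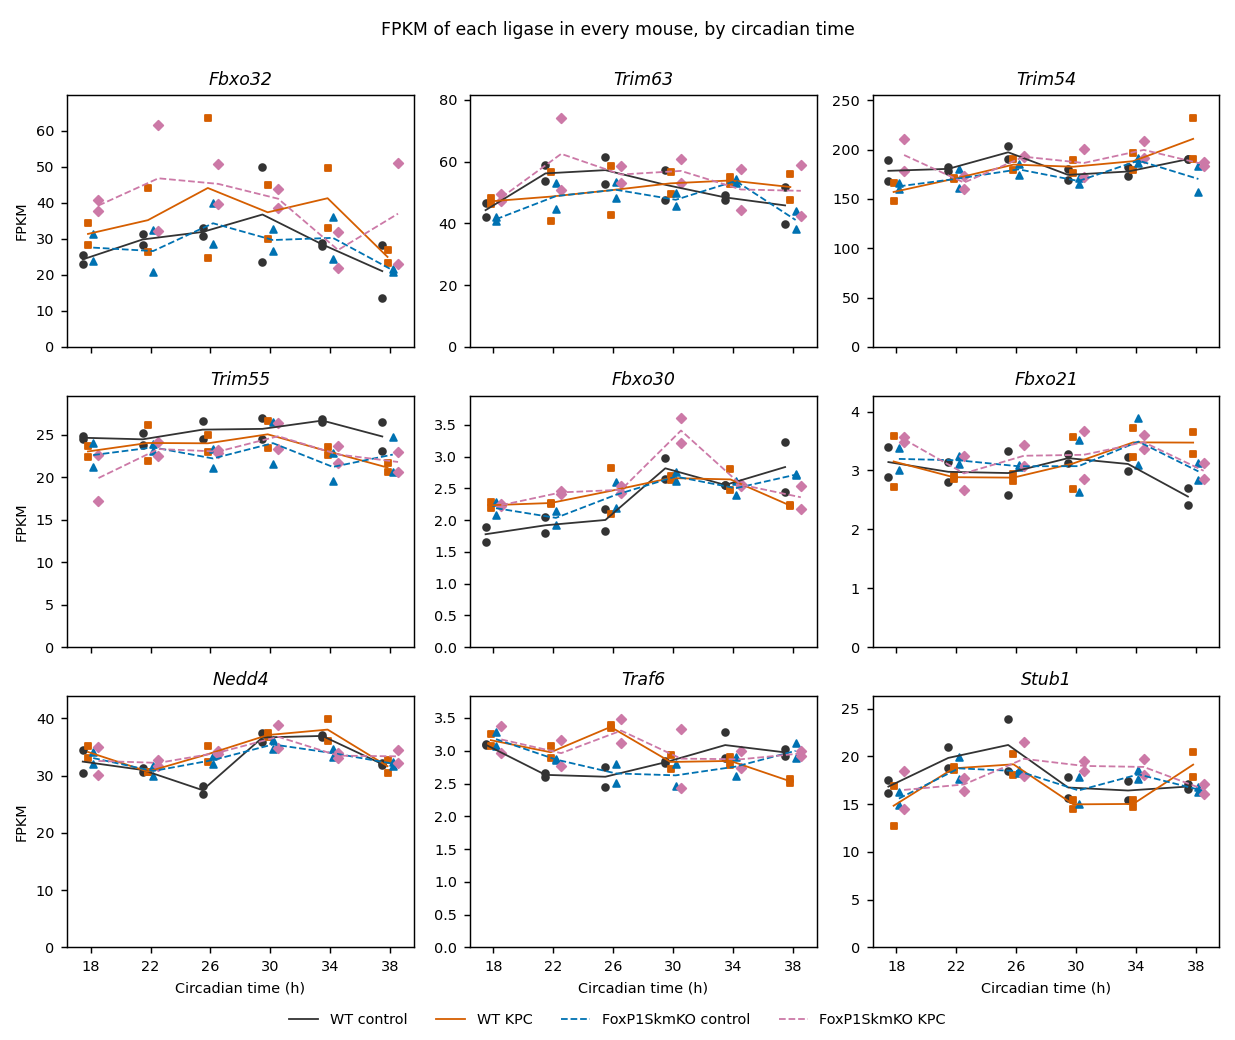
FPKM of each ligase (y axis, from 0, one panel per gene) against circadian time in hours (x axis), with one point per mouse and a line through the mean of the 2 mice of each genotype and condition. The points of *Fbxo32* scatter between 13.7 and 63.5 FPKM, whereas those of *Trim55* stay between 17.2 and 26.9 FPKM.

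Library totals ran from 14480867 to 20787784 counts on genes. The 7 fast-fiber markers of TA muscle were present in all groups and summed to at least 4.068e+04 FPKM in any library. *Foxp1* was 0.630 ± 0.14 FPKM in WT control, 0.629 in WT KPC, 0.578 in FoxP1SkmKO control, and 0.544 in FoxP1SkmKO KPC mice, with overlapping ranges and no call between genotypes (edgeR adjusted p = 0.459 in control and 0.246 in KPC mice). A count over the whole gene in whole muscle does not check a deletion of part of the gene in fibers. The 2 WT control libraries at CT26 stood apart: against the mean of CT22 and CT30, 15.1% of all genes differed in WT control mice, compared to 0.0128% in WT KPC, 0% in FoxP1SkmKO control, and 0.064% in FoxP1SkmKO KPC mice. For several results that rest on these libraries, values without them or without CT26 are also given. In these bulk samples, fewer cells of a type and less RNA per cell cannot be told apart.

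To ask whether the tumor altered the ligases, KPC and control mice were first compared with the 6 times averaged. None of the 9 genes passed the threshold (adjusted p under 0.05 in edgeR's quasi-likelihood test, adjusted over all 15637 genes) in either genotype. In WT mice 1.79% of all genes passed, and in FoxP1SkmKO mice 0.428% did. At an unadjusted p under 0.05 there were 2 members in WT and 3 in FoxP1SkmKO mice, beside 15.2% and 12.4% of all genes, and DESeq2 on all 48 libraries likewise called no member for KPC. The median log2 difference of the 9 genes was 0.038 in WT mice and 0.085 in FoxP1SkmKO mice, beside medians over all genes of 0.0016 and 0.0048. Without CT26, 1 member in WT and 3 in FoxP1SkmKO mice had an unadjusted p under 0.05 in edgeR, beside 12% of all genes in each.

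*Fbxo32*, which marks substrates such as MyoD and eIF3f for degradation, had the largest averaged differences. In WT control mice it had a lowest level of 13.7, a median of 28.4, and a highest level of 49.9 FPKM, compared to 23.2, 31.4, and 63.5 FPKM in WT KPC mice. In FoxP1SkmKO control mice the lowest, median, and highest levels were 20.69, 27.62, and 39.98 FPKM, compared to 21.8, 39.1, and 61.5 FPKM with KPC. The median was higher with the tumor in both genotypes and the ranges overlapped broadly. The averaged log2 difference was 0.31 in WT mice (SE 0.155, 95% interval −0.0035 to 0.63, edgeR adjusted p = 0.337), a fold of 1.24, and the tumor mean was the higher at 6 of 6 times. In FoxP1SkmKO mice it was 0.47 (SE 0.155, 95% interval 0.15 to 0.79, edgeR adjusted p = 0.163), a fold of 1.39, and the tumor mean was the higher at 5 of 6 times. These intervals reach from about no difference to a fold of 1.55 in WT and from 1.11 to 1.73 in FoxP1SkmKO mice.

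*Trim63*, whose product tags thick-filament proteins, did not share this difference in WT mice. Its lowest, median, and highest levels were 39.9, 50.5, and 61.6 FPKM in WT control and 40.8, 51.1, and 58.7 FPKM in WT KPC mice, a log2 difference of 0.0079 (SE 0.069). In FoxP1SkmKO mice they were 38.4, 46.9, and 54.4 FPKM without and 42.4, 53.1, and 74.1 FPKM with the tumor, a log2 difference of 0.20 (95% interval 0.060 to 0.34, edgeR adjusted p = 0.183). *Trim54* followed the same pattern, at −0.011 in WT and 0.11 in FoxP1SkmKO mice (edgeR adjusted p = 0.930 and 0.188). *Trim55* was the one member whose mean was lower with the tumor at all 6 times in WT mice, by a log2 of 0.030 to 0.23, with an averaged difference of −0.12 (95% interval −0.21 to −0.019, edgeR adjusted p = 0.219). In FoxP1SkmKO mice its difference was −0.0098. Thus, the 3 MuRF genes gave no common direction in WT mice, and none of their differences passed the test.

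Among the other ligases, the averaged differences were small in both genotypes. *Fbxo30* differed by a log2 of 0.081 in WT and 0.085 in FoxP1SkmKO mice, and *Fbxo21* by 0.081 and 0.036. *Nedd4*, the most even of the 9 genes between mice, differed by 0.066 (SE 0.031, edgeR adjusted p = 0.298) and 0.032. *Traf6* differed by 0.038 and 0.089, and *Stub1* by −0.086 and 0.055. The difference between genotypes in the effect of KPC was tested as well. No member passed, 0% of all genes did, and 1 member (*Trim54*) had an unadjusted p under 0.05, as did 6.52% of all genes. The WT minus FoxP1SkmKO value was −0.16 for *Fbxo32* (95% interval −0.60 to 0.29), −0.19 for *Trim63* (−0.39 to 0.0061), and −0.12 for *Trim54* (−0.24 to −0.011, edgeR adjusted p = 0.764). Without CT26 no member had an unadjusted p under 0.05 for this difference, beside 4.93% of all genes.

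**Figure D2:**
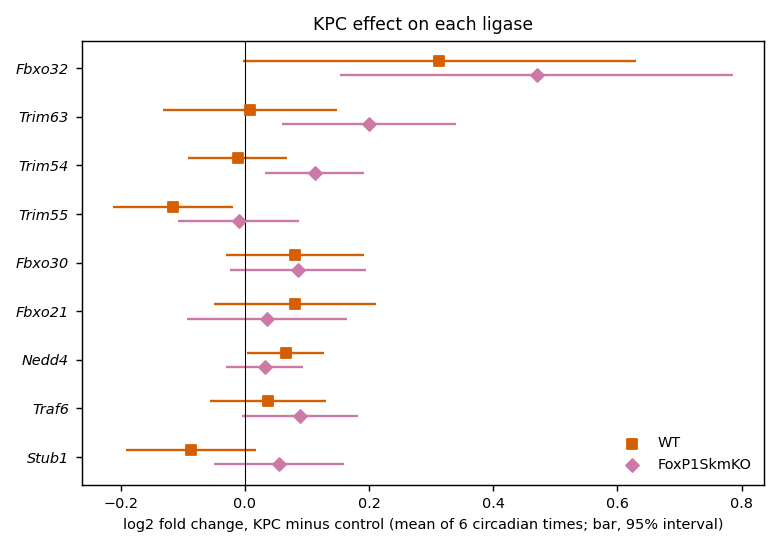
Averaged log2 difference between KPC and control mice (x axis) for each ligase (y axis) in WT and FoxP1SkmKO mice, with bars for the 95% interval and a line at 0. *Fbxo32* has the widest bars and the largest values, 0.31 and 0.47, and the bars of *Nedd4* are narrow and close to 0.

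FoxP1SkmKO and WT mice were also compared within each condition. No member passed in control mice, where 3.44% of all genes did, or in KPC mice, where 0.32% did. In control mice *Trim55*, which anchors to the sarcomere, was closest to the threshold. Its lowest, median, and highest levels were 23.1, 25.0, and 26.9 FPKM in WT control and 19.6, 23.0, and 26.5 FPKM in FoxP1SkmKO control mice, which overlap. The log2 difference was −0.16 (95% interval −0.26 to −0.063, edgeR adjusted p = 0.0542). DESeq2 on all 48 libraries called it (adjusted p = 0.0395), and leaving out any 1 of 10 of the 48 libraries took it past the edgeR threshold, with the lowest adjusted p, 0.0241, without the first mouse of FoxP1SkmKO control at CT38. Without CT26 the edgeR adjusted p was 0.140. *Trim54* also had an unadjusted p under 0.05 in control mice, where 17.2% of all genes did, with a log2 difference of −0.081 (edgeR adjusted p = 0.278). No member did in KPC mice, where 10.8% of all genes did. Without CT26, 1 member had an unadjusted p under 0.05 in control mice, beside 13.4% of all genes.

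At single times, KPC and control mice were compared with 2 mice each. Of the 12 comparisons, only that of WT mice at CT26 called any member: *Nedd4* and *Traf6*, where 7.17% of all genes passed. In the other 11 comparisons together 0.00872% of gene tests passed. *Traf6*, which signals from Toll-like and interleukin-1 receptors, measured 2.45 and 2.76 FPKM in WT control and 3.39 and 3.34 FPKM in WT KPC mice at CT26. Both mice with the tumor were above both controls, with a log2 difference of 0.36 (SE 0.11, edgeR adjusted p = 0.0425). How often all genes separated in this way was not counted. In FoxP1SkmKO mice at CT26 *Traf6* measured 2.51 and 2.80 FPKM without and 3.12 and 3.49 FPKM with the tumor. That difference was 0.31 and was not called (edgeR adjusted p = 0.393), and it differed from that in WT mice by 0.052 (edgeR adjusted p = 0.941).

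*Nedd4* measured 26.8 and 28.1 FPKM in WT control and 32.4 and 35.1 FPKM in WT KPC mice at CT26. The log2 difference was 0.29 (SE 0.075, edgeR adjusted p = 0.0149), and the control values were the lowest of the gene in all 48 libraries. In FoxP1SkmKO mice it measured 33.4 and 32.1 FPKM without and 33.8 and 34.2 FPKM with the tumor, a log2 difference of 0.049. The genotypes differed by 0.24 (95% interval 0.025 to 0.46, edgeR adjusted p = 0.380). When CT26 was set against the mean of CT22 and CT30 within each group, a contrast added after the data were seen, *Nedd4* was the only member called, and only in WT control mice, where it was lower by a log2 of 0.29 (SE 0.066, edgeR adjusted p = 0.00231). The same contrast was −0.0022 in WT KPC, −0.015 in FoxP1SkmKO control, and −0.026 in FoxP1SkmKO KPC mice. At CT26 the WT control mice, whose libraries stand apart, were thus the low group for *Nedd4*. Without CT26, the averaged log2 difference between KPC and control WT mice went from 0.038 to −0.027 for *Traf6* and from 0.066 to 0.021 for *Nedd4*.

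Markers of other cells were summed in these 4 libraries, and no single marker of another cell type was called in WT mice at CT26. The summed erythroid markers were 246 to 330 FPKM in WT control and 161 to 177 FPKM in WT KPC mice at CT26, and fibroblast markers were 37.3 to 44.1 and 25.5 to 32.8 FPKM. Schwann cell markers were 15.1 to 15.6 and 13.1 to 13.5 FPKM, and satellite cell markers, the one list of these that was higher with the tumor, were 0.941 to 1.29 and 1.36 to 1.5 FPKM. The values of these 4 lists did not overlap. With 2 mice a side this can occur without a difference, and how often it did over all genes was not counted. Macrophage markers (8.25 to 9.09 and 7.35 to 9.03 FPKM) and endothelial markers (69.2 to 80.6 and 69.4 to 72.7 FPKM) overlapped, and so did fast-fiber markers. With the times averaged, 2 of 4 fibroblast markers and 1 of 4 endothelial markers fell in WT KPC mice, and both neutrophil markers that could be tested and 1 of 7 fast-fiber markers rose. Their part in the results was not tested. Leaving out the first mouse of WT control (adjusted p = 0.262 for *Nedd4* and 0.453 for *Traf6*) or the second of WT KPC at CT26 (0.173 and 0.137) ended both calls. That of *Traf6* also ended without the first mouse of WT KPC at CT26 (0.161) and, narrowly, without any 1 of 4 libraries from other times.

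Whether the effect of KPC varied with time was tested over all 6 times. No member passed in WT mice, where 0.883% of all genes did, or in FoxP1SkmKO mice, where 0% did. The smallest adjusted p values in WT mice were 0.215 for *Fbxo30* and 0.252 for *Traf6*.

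The effect of circadian time itself was tested next. Averaged over the 4 combinations of genotype and condition, 5 of the 9 genes changed with circadian time, compared to 40.6% of all genes: *Fbxo30* (edgeR adjusted p = 5.89e-06), *Nedd4* (1.71e-05), *Stub1* (0.00177), *Trim54* (0.0203), and *Trim63* (0.0399). *Fbxo32* (0.103), *Traf6* (0.166), *Trim55* (0.169), and *Fbxo21* (0.236) did not pass. Without the WT control libraries at CT26, 34.5% of all genes passed, and so did the same genes apart from *Trim63* (adjusted p = 0.0657). A 24 h wave fitted to all 48 libraries was called for 5 genes, compared to 39.9% of all genes, and these were *Fbxo30*, *Nedd4*, *Stub1*, *Trim63*, and *Fbxo32*. Leaving the WT control libraries at CT26 out, 34.9% of all genes passed, *Stub1* was no longer called (adjusted p = 0.0521), and *Trim54* was (0.0446).

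*Fbxo30*, an F-box gene that is known to be restrained by BMP signaling, had the strongest call. Its level was 2.11 ± 0.224 FPKM at CT18 and 2.89 ± 0.355 FPKM at CT30 (SD, n = 8 mice over genotypes and conditions). The wave had an amplitude of 0.21 on the log2 scale, a peak-to-trough fold of 1.33, and a peak at CT32.0 (edgeR adjusted p = 1.23e-06). *Nedd4*, the HECT ligase, was 31.2 ± 0.885 FPKM at CT22 and 36.5 ± 1.41 FPKM at CT30, with a fold of 1.15 and a peak at CT32.4 (edgeR adjusted p = 1.66e-05). Both genes thus had their highest levels in the rest phase.

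The other called waves peaked earlier. *Fbxo32* was highest at CT26, at 38.9 ± 12.8 FPKM, and lowest at CT38, at 26.1 ± 11 FPKM (n = 8 mice each), with a fold of 1.45 and a peak at CT26.7 (edgeR adjusted p = 0.0200). *Trim63* was 54.1 ± 10.04 FPKM at CT22 and 45.3 ± 3.26 FPKM at CT18, with a fold of 1.18 and a peak at CT27.6 (edgeR adjusted p = 0.0180). *Stub1*, the chaperone-linked ligase, was 19.6 ± 2.14 FPKM at CT26 and 15.9 ± 1.83 FPKM at CT18, with a fold of 1.15 and a peak at CT25.6 (edgeR adjusted p = 0.00914). The wave of *Fbxo32* had the largest fold of the 5 and the spread between mice was also the largest. It was no longer called without the second mouse of WT KPC at CT26 (adjusted p = 0.0825), of WT control at CT38 (0.0552), or of FoxP1SkmKO KPC at CT38 (0.0541). That of *Trim63* was likewise lost without the second mouse of any 1 of WT control, WT KPC, or FoxP1SkmKO KPC at CT38 (0.0569, 0.0523, and 0.0582).

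**Figure D3:**
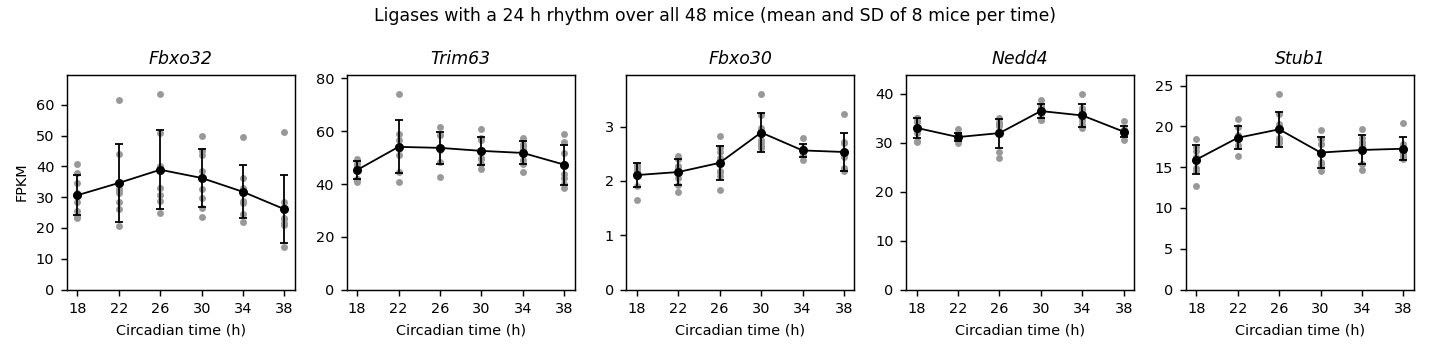
Levels of the 5 ligases with a called 24 h wave, in FPKM (y axis), against circadian time in hours (x axis), with one point per mouse and the mean and SD of the 8 mice at each time. *Fbxo30* and *Nedd4* are highest at CT30, and *Fbxo32* and *Stub1* at CT26.

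Within single groups the wave rests on 12 mice. In the edgeR fit, *Fbxo30*, *Nedd4*, and *Stub1* were called in WT control mice, where 18.4% of all genes were. *Nedd4* was called in WT KPC mice, where 11.2% were, no member in FoxP1SkmKO control mice, where 8.27% were, and *Fbxo30* in FoxP1SkmKO KPC mice, where 6.93% were. In WT control mice *Fbxo30* measured 1.66 and 1.90 FPKM at CT18, 1.79 and 2.05 at CT22, 1.83 and 2.17 at CT26, 2.65 and 2.98 at CT30, 2.55 and 2.56 at CT34, and 2.44 and 3.23 at CT38. The wave had an amplitude of 0.33 on the log2 scale with a peak at CT33.4 (edgeR adjusted p = 0.00022). All 6 mice of the last 3 times were above all 6 of the first 3. This split describes the same values as the wave, and its share over all genes was not counted. *Nedd4* had an amplitude of 0.15 with a peak at CT34.2 in WT control and 0.13 with a peak at CT32.0 in WT KPC mice. Without CT26, 4.85% of all genes were called in WT control mice, *Fbxo30* (adjusted p = 0.00111) and *Nedd4* (0.0324) still were, and *Stub1* was not (0.378). The wave of *Nedd4* in WT control mice then had an amplitude of 0.13 with a peak at CT31.2, so its later peak rested on CT26.

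With the sinusoid fitted to FPKM in each group, as the study did, and an unadjusted p under 0.01, 1 of the 36 member and group pairs was called, *Traf6* in FoxP1SkmKO control mice, with an amplitude of 9.43% of its mean level and a peak at CT41.0. By this rule 4.92% of all genes were called in WT control, 4.22% in WT KPC, 4.07% in FoxP1SkmKO control, and 2.63% in FoxP1SkmKO KPC mice. Among genes that averaged 1 FPKM or more, as the members do, the shares were higher, at 10.5%, 8.83%, 9.21%, and 5.59%. *Traf6* had its fitted peak at CT37.2 in WT control and at CT24.1 in WT KPC mice. A test of the difference in wave between KPC and control mice called no member and 0% of all genes in WT mice, and likewise no member and 0% in FoxP1SkmKO mice. The sinusoid of *Traf6* in WT mice had the smallest p of the members (adjusted p = 0.752), and edgeR called no member for this difference either (adjusted p = 0.119 for *Traf6*).

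The ligases differed in how alike the 2 mice of a group were. For *Fbxo32* the median fold between the 2 mice was 1.36 over the 24 groups, and in 11 of them the mice differed by more than 0.5 on the log2 scale. The widest pair was WT KPC at CT26, with 24.8 and 63.5 FPKM. WT control at CT30 had 49.9 and 23.7 FPKM, WT control at CT38 had 28.4 and 13.7, and FoxP1SkmKO KPC at CT38 had 51.1 and 22.9. For *Trim63* the median fold was 1.14 and 1 group exceeded 0.5, FoxP1SkmKO KPC at CT22, with 51.0 and 74.1 FPKM. No group of the other 7 genes did, and the median fold was 1.05 for *Nedd4*.

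These excursions of *Fbxo32* were shared by *Trim63*. Across the 48 libraries, Pearson's r of log2 CPM (counts scaled by library size) was 0.750 for this pair, the highest between members, and 0.841 when the deviations of each mouse from its group mean were used. The libraries share depth and scaling, and r is given as a description. Of all tested genes, the one most like *Fbxo32* was *Klhl38*, which encodes a Kelch-like protein, with r = 0.855 over the libraries and 0.913 within groups. *Trim63*, *Ctdsp2*, *Stat5b*, and *Pnrc1* followed with r between 0.693 and 0.750. The genes most like *Trim63* included *Fbxo32*, *Ip6k1*, *Klhl38*, and *Rnf167*, with r from 0.750 to 0.649. Of the listed regulators and atrophy transcripts, *Klf15*, a glucocorticoid-induced factor, had the highest r with both within groups, 0.721 for *Fbxo32* and 0.716 for *Trim63*. Over the 48 libraries the r of *Klf15* was 0.434 and 0.397, and other listed genes had higher values. The summed markers of other cell types had an r within groups with *Fbxo32* between −0.358 (fibroblasts) and 0.238 (Schwann cells), and the total count of the library had 0.041. For the members called at CT26, the values of *Traf6* largest in size were −0.690 with neutrophil, 0.462 with smooth muscle, and −0.444 with slow-fiber markers. *Nedd4* lay between −0.410 (liver) and 0.218 (adipocytes), and *Trim55* had 0.565 with the fast-fiber markers. The neutrophil markers were near the floor, with median sums of 0.253 to 1.67 FPKM by genotype and condition and a highest sum of 15.75 FPKM. The liver markers were also near the floor, with median sums of 0.039 to 0.51 FPKM and a highest sum of 151.3 FPKM.

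**Figure D4:**
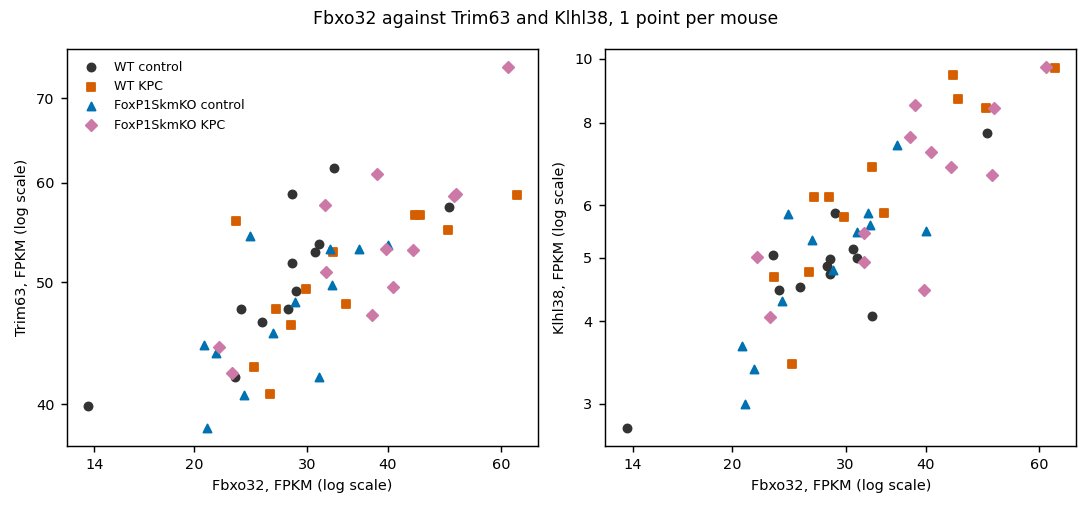
Level of *Fbxo32* (x axis, FPKM, log scale) against that of *Trim63* and of *Klhl38* (y axes, FPKM, log scale, one panel each), with one point per mouse and a shape for each genotype and condition. In both panels the mouse with the lowest *Fbxo32* is at 13.7 FPKM and low on the y axis, and mice of all 4 combinations of genotype and condition lie along the same rising band.

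Other pairs of members were related in other ways. *Trim54* and *Stub1* had r = 0.523 over the libraries and 0.541 within groups. *Fbxo30* and *Nedd4*, which peaked at similar times, had 0.667 over the 24 group means and 0.087 within groups. *Nedd4* and *Stub1* had −0.519 over the libraries and −0.525 within groups, and *Trim55* and *Fbxo21* had −0.502 and −0.538. The genes most like the remaining members over the 48 libraries were *Tcap*, *Chmp4b*, and *Stk11* for *Trim54* (r of 0.812 to 0.815), and *Asph*, *Nexn*, and *Cavin4* for *Trim55* (0.670 to 0.769). They were *Tmem106b*, *Fnip1*, and *Rbm33* for *Nedd4* (0.851 to 0.867), and *Fitm1*, *Jsrp1*, and *Mbd3* for *Stub1* (0.813 to 0.845). *Fbxo30* was most like *Gm17971*, *Coq10b*, and *Scarb2* (0.728 to 0.794). The values were lower for *Fbxo21*, with *Tsc2*, *Trappc11*, and *Slc25a34* (0.571 to 0.585), and for *Traf6*, with *Zfp318*, *Gm43267*, and *Zzz3* (0.575 to 0.590).

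**Figure D5:**
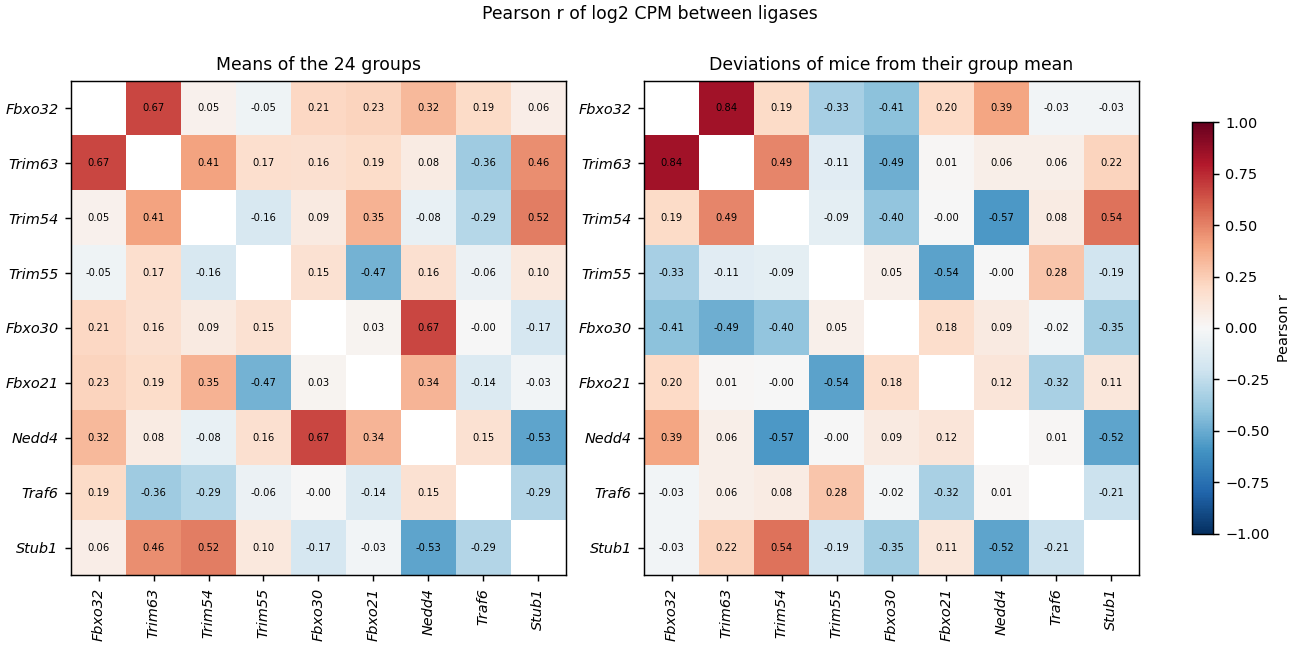
Pearson's r of log2 CPM between the 9 ligases over the means of the 24 groups (left) and over the deviations of the mice from their group mean (right), by color from −1 to 1 and printed in each square. *Fbxo32* with *Trim63* is at 0.67 on the left and 0.84 on the right, and *Fbxo30* with *Nedd4* at 0.67 and 0.09.

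The partners of the ligases were examined in lists of genes. Of 18 other muscle ubiquitin ligases, *Ubr4*, an N-end rule ligase, rose with the tumor averaged over time in WT mice (log2 0.16, SE 0.039, edgeR adjusted p = 0.0271), and *Asb2*, a cullin-5 adaptor, rose in FoxP1SkmKO mice (0.17, edgeR adjusted p = 0.0405). None fell. The list had a median of 0.038 and 0.067, against 0.0016 and 0.0048 over all genes. It held 8 genes in WT and 7 in FoxP1SkmKO mice at an unadjusted p under 0.05, beside 15.2% and 12.4% of all genes. No gene of the 9 SCF core and ubiquitin genes tested, the 12 E2 enzymes, the 9 chaperones and cochaperones of *Stub1*, or the 7 deubiquitinases was called in either genotype by edgeR. At an unadjusted p under 0.05 these lists held 1, 0, 1, and 0 genes in WT and 1, 2, 2, and 0 in FoxP1SkmKO mice, beside 15.2% and 12.4% of all genes.

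Among 18 regulators of the atrophy ligases, 3 rose in each genotype and none fell, beside 1.79% of all genes called in WT and 0.428% in FoxP1SkmKO mice. At an unadjusted p under 0.05 there were 7 regulators in WT and 10 in FoxP1SkmKO mice, beside 15.2% and 12.4% of all genes. *Cebpd*, a factor of the acute-phase response, rose by a log2 of 0.70 (SE 0.107, edgeR adjusted p = 0.000387) in WT and 0.51 (edgeR adjusted p = 0.0178) in FoxP1SkmKO mice. *Stat3*, which carries interleukin-6 signals, rose by 0.30 and 0.22 (edgeR adjusted p = 0.00169 and 0.0435). *Klf15* rose by 0.32 in WT mice (edgeR adjusted p = 0.0188), and *Hdac4*, a repressor linked to denervation, by 0.26 in FoxP1SkmKO mice (edgeR adjusted p = 0.0307). No FoxO gene was among them. Of 18 other atrophy, glucocorticoid, or FoxO responsive transcripts tested, *Per1* rose in WT mice (0.61, edgeR adjusted p = 0.0159). In WT mice 5 of these transcripts had an unadjusted p under 0.05, beside 15.2% of all genes. None was called in FoxP1SkmKO mice, where 8 had an unadjusted p under 0.05, as did 12.4% of all genes. For the averaged difference between genotypes in the KPC effect, no gene of any of these lists was called, and 0% of all genes were. Without CT26, *Ubr4*, *Klf15*, and *Per1* were no longer called in WT mice (adjusted p = 0.747, 0.102, and 0.224), nor were *Hdac4* and *Stat3* in FoxP1SkmKO mice (0.0839 and 0.0745). With limma on log2(FPKM + 1), none of the 4 calls in FoxP1SkmKO mice held (adjusted p = 0.0632 for *Cebpd*, 0.0694 for *Asb2*, 0.0790 for *Hdac4*, and 0.0900 for *Stat3*). An additive model ended the calls of *Ubr4*, *Klf15*, and *Per1* in WT mice (adjusted p = 0.272, 0.0524, and 0.101) and of *Asb2*, *Cebpd*, and *Stat3* in FoxP1SkmKO mice (0.119, 0.215, and 0.0597). With each of the 48 libraries left out in turn, the call was lost in 10 cases for *Ubr4*, 4 for *Klf15*, and 1 for *Per1* in WT mice. For *Klf15* these were the second mouse of WT KPC at CT26, CT34, or CT38 and the first at CT30 (adjusted p from 0.0505 to 0.0669), and for *Per1* the second of WT KPC at CT38 (0.0503). In FoxP1SkmKO mice it was lost in 26 cases for *Stat3*, 13 for *Asb2*, 12 for *Hdac4*, and 4 for *Cebpd*. In WT mice, *Cebpd* and *Stat3* were called under each of these settings.

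At CT26 itself, where 7.17% of all genes were called in WT mice and the WT control libraries stand apart, 4 of the 18 other ligases rose with the tumor, among them *Ubr4*, *Huwe1*, and *Ubr2* (log2 of 0.56 to 0.77). Of the 18 regulators 4 rose, *Klf15* (0.60), *Foxo3* (0.52), *Nr3c1*, the glucocorticoid receptor (0.36), and *Map3k7* (0.25). *Usp13* rose as 1 of 7 deubiquitinases (0.34) and *Per1* as 1 of the 18 other atrophy transcripts (1.71). *Skp1* fell by 0.34 as 1 of 9 SCF core and ubiquitin genes and *Ube2k* by 0.49 as 1 of 12 E2 enzymes. No gene of these lists was called in FoxP1SkmKO mice at CT26, and the difference between genotypes at CT26 was not examined for them.

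Over the 48 libraries a 24 h wave was called for 39.9% of all genes. In these lists it was called for 15 of 18 other ligases, 6 of 9 SCF core and ubiquitin genes, 8 of 12 E2 enzymes, 5 of 9 chaperones, 4 of 7 deubiquitinases, 13 of 18 regulators, and 14 of 18 other atrophy transcripts. Several had larger waves than any of the 9 ligases: *Usp2*, a deubiquitinase under direct clock control, had an amplitude of 0.53 on the log2 scale with a peak at CT34.3, and *Asb2* had 0.47 with a peak at CT21.5. *Foxo1* had 0.36 with a peak at CT39.0, whereas *Fbxo32*, its known target, had 0.27 with a peak at CT26.7.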

How the data were processed

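RNA was measured in 48 TA libraries of 24 groups with 2 mice each, grouped by the sample labels. The deposited counts are raw reads per gene in 12 tables of 4 libraries, one table for each genotype and time. The methods of the study name STAR and HTSeq on mm39, whereas the submitters' processing notes name HISAT2 2.0.5 and DESeq2 1.20.0, and this conflict was not resolved. The authors also deposited FPKM (counts scaled by gene length and library size), and a signal (counts divided by the DESeq2 size factors of each table) that served only as a check. Deposited log2 fold changes and p-values of the authors' comparisons were not used. A gene absent from a count table had its count taken back from its FPKM, which gave whole numbers (28541 single counts).

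Genes were filtered by filterByExpr, scaled by TMM, and fitted with edgeR 4.0.16 in R 4.3.3 with 1 mean per group, using the quasi-likelihood test. Contrasts gave the KPC effect at each time and averaged, its difference between genotypes, the genotype effect, the effect of time, and 24 h cosine and sine waves. The threshold for a call was an adjusted p (Benjamini-Hochberg, over all 15637 genes) under 0.05, and intervals used 32.61 degrees of freedom. The 24 h sinusoid was also fitted to FPKM by least squares (Python 3.11.15, numpy 2.4.6, scipy 1.17.1). Alternatives were no filter, DESeq2 size factors, DESeq2 1.42.0 on 48 or 4 libraries, edgeR on 4 libraries, limma 3.58.1 on log2(FPKM + 1) and log2(FPKM + 0.1), an additive model, a replicate block, Spearman correlation, and each library left out. Contrasts without CT26, without the WT control libraries at CT26, and of CT26 with its neighboring times were added after the data were seen. The scripts were tested on simulated data.

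Named genes are the 9 ligases, the 5 genes most like *Fbxo32* and *Trim63* and the 3 most like each other member, and from each list at most 4 genes past the threshold with the smallest p, apart from a few that are not reported here. *Foxp1*, *Jmjd8*, and *Gm56915*, and the correlations of *Klf15*, were named outside this rule after values were seen. The ligases and the lists were chosen with earlier results of these data known. Promoter windows and their letters came from RefSeq and overlaps of exons from GENCODE mouse release 39. Library totals (14480867 to 20787784 counts) limit the precision of *Fbxo30*, *Fbxo21*, and *Traf6* most. Mice, not reads, are the replicates.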

Additional observations from a re-analysis of the deposited data

Results flagged for a closer look

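In 3 of the 54 combinations of a ligase and a circadian time, both KPC mice lay on one side of both control mice in WT and on the other side in FoxP1SkmKO mice. Over all 15637 genes tested, 5.83% of the 93822 combinations did the same, so the number for the ligases is given as a description. For *Trim54* at CT18, WT mice measured 189 and 168 FPKM without and 148 and 166 FPKM with the tumor, and FoxP1SkmKO mice 166 and 160 FPKM without and 178 and 211 FPKM with it. The log2 differences were −0.19 and 0.27, and the difference between genotypes was −0.4568 (SE 0.136, edgeR adjusted p = 0.254). For *Trim54* at CT26, WT mice measured 204 and 191 FPKM without and 179 and 190 FPKM with the tumor, and FoxP1SkmKO mice 185 and 175 FPKM without and 193 and 192 FPKM with it. The difference between genotypes was −0.1925 (edgeR adjusted p = 0.632), and it rests on the WT control libraries at CT26 that stand apart. For *Stub1* at CT30, WT mice measured 15.6 and 17.9 FPKM without and 14.5 and 15.4 FPKM with the tumor, and FoxP1SkmKO mice 15.01 and 17.86 FPKM without and 19.5 and 18.5 FPKM with it. The difference between genotypes was −0.3804 (edgeR adjusted p = 0.970). None of the 3 differences passed the edgeR test.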

How the results depend on the processing

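Called members were counted under each alternative. In the averaged comparisons (0 calls), DESeq2 on 48 libraries and the additive model each gave 1 call, *Trim55* between genotypes in control mice, and no filter on low counts gave 5, among them *Fbxo32* for KPC in WT and FoxP1SkmKO mice at unaltered log2 differences of 0.31 and 0.47. Without the filter edgeR tested 33218 genes and its prior degrees of freedom were infinite, against 8.611 with it, so that each gene took the spread of the trend and the wide spread of *Fbxo32* between mice no longer counted. That setting also gave 8 calls in place of 2 at single times and 1 in place of 0 for the KPC effect by time. At single times edgeR on 4 libraries gave 0 calls, and CT26 against its neighboring times gave 1. DESeq2 on 4 libraries gave 2, *Nedd4* in WT mice at CT26 and *Fbxo32* in FoxP1SkmKO mice at CT18. For waves in single groups (1 call), adjustment over all genes gave 0 and over genes that averaged 1 FPKM or more gave 0, log2(FPKM + 0.1) gave 2, and the edgeR contrasts at the same threshold gave 6. Of 31 genes named as most like a member, 16 were in the same top ranks by Spearman's rho. The causes of these differences, that of the filter among them, were not tested.

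The replicate numbers did not pair the mice (r of deviations between −0.324 and 0.234 over 276 pairs of groups). The replicate block raised the calls of waves in single groups from 1 to 3 and changed no other count of called members. With each library left out in turn, there were 0 to 1 calls in the averaged comparisons, 0 to 2 at single times, 3 to 7 for the wave over all libraries, and 0 to 3 for waves in single groups.

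Directions turned for small values. Without CT26 the averaged KPC effect in WT mice was 0.0062 for *Trim54* and −0.027 for *Traf6*, the difference between genotypes was −0.0078 for *Nedd4*, and the genotype effect in control mice was −0.032 for *Nedd4*. That effect for *Fbxo32* was 0.00077 with limma on log2(FPKM + 1) and 0.0017 on log2(FPKM + 0.1). With single libraries left out, the KPC effect spanned −0.036 to 0.044 for *Trim63* and −0.039 to 0.0092 for *Trim54* in WT and −0.047 to 0.022 for *Trim55* in FoxP1SkmKO mice. The difference between genotypes for *Fbxo30* spanned −0.042 to 0.034. The genotype effect spanned −0.090 to 0.090 for *Fbxo32* and −0.030 to 0.0034 for *Traf6* in control mice, and −0.0039 to 0.073 for *Traf6* in KPC mice. The effect of time on *Trim63* was not called with DESeq2 size factors (adjusted p = 0.0546) or without any 1 of 20 libraries. Averages rest on 12 mice a group and single times on 2, which limits what could be called for *Fbxo32*.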
